A study of Mus musculus with 4 samples.

Results

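The mature miRNAs cut from the miR-423 and miR-151 precursors were examined in exosomes, small vesicles shed into the medium, of BV2 cells. The miRNA names listed in the 4 libraries numbered 603, and 4 of them are described here, listed as mmu-miR-423-5p, mmu-miR-423-3p, mmu-miR-151-5p and mmu-miR-151-3p. They were chosen by the reads seen on both arms of these precursors, so their detection and their level are a description and were not tested. The name of the group holds in full for miR-423 only. Both arms of miR-423 were read in every library, whereas miR-151-5p had 16 reads in all and none in HS replicate 1.

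BV2 is an immortalized mouse microglial line, here wild type. The 2 control libraries came from cells kept for 2 h at, by the methods of the study, 37 °C. The 2 heatstroke (HS) libraries came from cells exposed for 2 h, by the methods at 42 °C with a return to 37 °C for 12 h. The labels give the 2 h alone, and the results text of the study gives a shorter interval to harvest than the methods. Nothing in the labels says that the replicates of a group were separate cultures, and p-values therefore measure only the spread between these samples, which may be technical.

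A miRNA precursor is a folded RNA hairpin. After Drosha and Dicer have cut it, its 5′ side gives the 5p RNA and its 3′ side the 3p RNA, and usually one of them is kept in an Argonaute protein while the other is lost. The retained strand recognizes messenger RNAs mainly through its bases 2 to 8, the seed, so the arms of a single hairpin pair with different targets. MiR-423-5p is often found in blood plasma and has been studied there as a marker of heart failure. MiR-151 is expressed together with its host gene, the focal adhesion kinase gene Ptk2, and has been linked to cell migration. It is related in sequence to miR-28 and miR-708.

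The gene Mir423 occupies bases 77078064 to 77078172 of chromosome 11 (GRCm38, minus strand). In GENCODE M21 it sits in intron 1 of Nsrp1, a gene for a splicing regulator on the same strand, and it overlaps no exon of it. Its hairpin is shown because it carries both arms whose ratio is described below. The RefSeq sequence (GRCm38.p6) of 109 bases is written 5′ to 3′ with the mature 5p and 3p arms, in that order, in capitals.
Mir423 hairpin: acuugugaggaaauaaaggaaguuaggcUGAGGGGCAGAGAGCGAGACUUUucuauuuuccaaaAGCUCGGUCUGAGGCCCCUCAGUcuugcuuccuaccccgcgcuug

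The 5p arm takes bases 29 to 51 of this hairpin and the 3p arm bases 65 to 87, with 13 bases between them. In the minimum free energy fold given by RNAfold, 17 of the 23 bases of the 5p arm pair with the 3p arm. The mature sequences, at chr11:77078122-77078144 for 5p and chr11:77078086-77078108 for 3p, are shown with the seed in capitals.
miR-423-5p: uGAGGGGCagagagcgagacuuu
miR-423-3p: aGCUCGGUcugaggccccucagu

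Both arms have 23 bases. Of the bases of miR-423-5p, 10 are G and 3 are C, and of those of miR-423-3p, 7 are G and 8 are C. Among the 1679 mature mouse names of the RefSeq table, 1 other name, miR-6921-5p, has the seed of miR-423-5p, and 0 others have that of miR-423-3p. RefSeq sequences were matched for 2 of the 4 members, and miR-151-5p and miR-151-3p are given by name. Mir151 occupies bases 73254815 to 73254882 of chromosome 15 (GRCm38, minus strand), in intron 22 of the transcript Ptk2-201, and overlaps no exon of its host.

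The deposited values were reads scaled by 1 size factor per library, here called normalized counts, and whole reads could be recovered from them. The reads on the listed miRNAs numbered 96516 and 121503 for the control group, 42091 for HS replicate 1 and 113966 for HS replicate 2. HS replicate 1 stood apart from the other libraries. Its Spearman correlations with them, over 376 miRNA names that are not independent replicates, were 0.60 to 0.68, against 0.79 to 0.81 among the other libraries. A list of stromal, endothelial and epithelial miRNAs summed to 0.0214% of its reads, against 1.33% to 4.43% in the other libraries, and 4 of the 8 members of that list, among them miR-199a-3p, were at 0 reads there. All 7 members of a myeloid list were listed, and they summed to 2.07% to 7.31% of the reads, or to 1.80% to 3.21% without miR-21a-5p, which many cell types express. Over the 4 libraries, miR-146a-5p of this list had 6653 reads, miR-146b-5p 1851, miR-142a-5p 767, miR-155-5p 576 and miR-142a-3p 23. The least read member, miR-223-3p, was read 5 and 2 times in the control group, 3 times in HS replicate 1 and 0 times in HS replicate 2. The part of these differences in the results below was not tested. The fold changes and ratio differences below are therefore given without HS replicate 1 as well. In vesicle RNA, fewer vesicles of a kind and less of an RNA per vesicle cannot be told apart.

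MiR-423-5p was the most abundant of the 4 members in every library. Control replicate 1 held 4196 reads of it (3507 normalized counts) and control replicate 2 held 6301 (4271), whereas HS replicate 1 held 4083 (9873) and HS replicate 2 held 7747 (5140). After scaling, each HS library exceeded each control library, and HS replicate 1 was the highest. It ranked 2 among the listed miRNAs in both HS libraries, and 4 and 3 in the control group. Its share of the listed reads was 4.35% (95% Wilson interval 4.22% to 4.48%) and 5.19% (5.06% to 5.31%) in the control group. It was 9.70% (9.42% to 9.99%) and 6.80% (6.65% to 6.95%) in the HS group, so the order of the groups was the same on this scale. The group means were 3889 ± 540 and 7507 ± 3347 normalized counts (SD, n = 2).

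MiR-423-3p, the opposite strand of the same hairpin, had 1729 reads (1445 normalized counts) in control replicate 1 and 2353 (1595) in control replicate 2. It had 1293 (3127) in HS replicate 1 and 2170 (1440) in HS replicate 2. Only HS replicate 1 stood out. HS replicate 2 was just under both control libraries after scaling. As a share of the listed reads it lay between them, with 1.90% (95% Wilson interval 1.83% to 1.99%) against 1.79% (1.71% to 1.88%) and 1.94% (1.86% to 2.02%), and HS replicate 1 had 3.07% (2.91% to 3.24%). The groups thus overlapped on both scales. The group means were 1520 ± 106 and 2283 ± 1193 normalized counts (SD, n = 2). It ranked 12 of the 603 names by mean level over the 4 libraries.

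MiR-151-3p, the abundant strand of its precursor, had 1314 reads (1098 normalized counts) in control replicate 1 and 2492 (1689) in control replicate 2. It had 1636 (3956) in HS replicate 1 and 2894 (1920) in HS replicate 2. As for miR-423-5p, each HS library exceeded each control library. Its share of the listed reads was 1.36% (95% Wilson interval 1.29% to 1.44%) and 2.05% (1.97% to 2.13%) in the control group. It was 3.89% (3.71% to 4.08%) and 2.54% (2.45% to 2.63%) in the HS group. The group means were 1394 ± 418 and 2938 ± 1440 normalized counts (SD, n = 2), and it ranked 9 by mean level.

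MiR-151-5p, the other strand of that precursor, had 7 reads (5.85 normalized counts) in control replicate 1 and 8 (5.42) in control replicate 2. HS replicate 1 held 0 reads of it and HS replicate 2 held 1 (0.664). Each control library exceeded each HS library, at levels close to the detection limit. The limit of 3 reads that a count of 0 allows corresponds to 7.25 normalized counts in HS replicate 1, which is above either control value. In HS replicate 2, the 1 read was 0.000877% of the listed reads (95% Wilson interval 0.000155% to 0.00497%). The control level corresponds to an expected 2.32 reads for HS replicate 1 and 8.46 for HS replicate 2. Over both libraries of a group, 15 control reads stood against 1 HS read, which is 10.8-fold lower in the HS group after the size factors, with an exact 95% counting interval from 1.66-fold to 454-fold. Such intervals and limits cover counting error only, because amplified reads are not independent molecules. It ranked 320 by mean level.

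**Figure D1:**
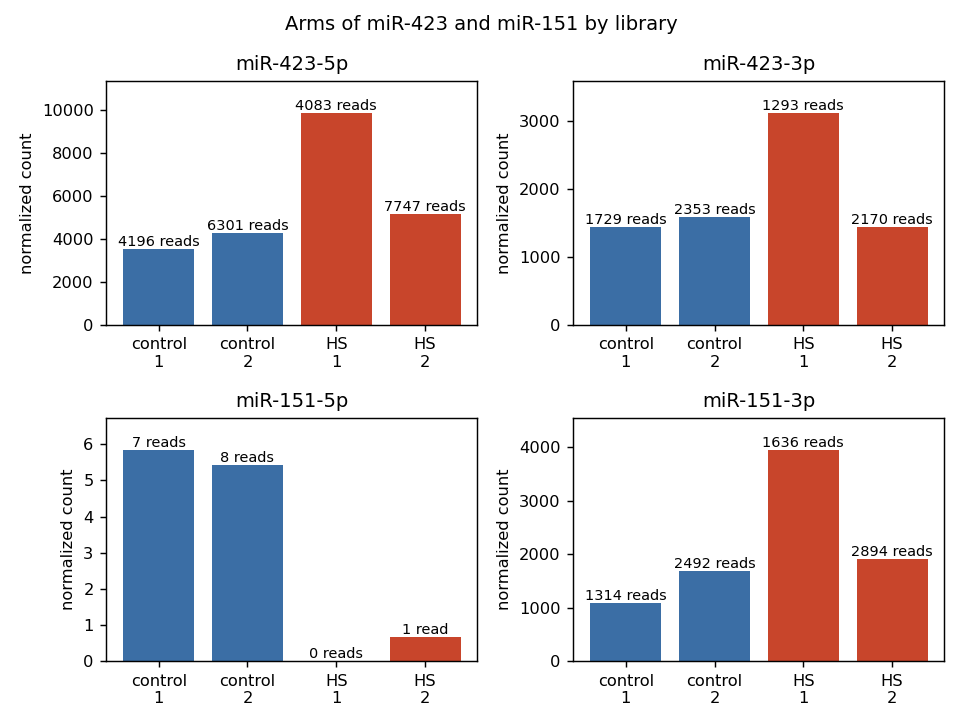
Normalized count of each arm (vertical axis, from 0, a separate scale for each arm) in control replicates 1 and 2 (blue) and HS replicates 1 and 2 (red), with the recovered reads above each bar. HS replicate 1 is the highest library for miR-423-5p (9873), miR-423-3p (3127) and miR-151-3p (3956), while miR-151-5p has its 15 control reads against 1 HS read.

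The levels of the members therefore fell into 3 tiers, miR-423-5p on top, miR-151-3p with miR-423-3p next, and miR-151-5p far below. The ratio of miR-423-5p to miR-151-3p reads, which does not depend on the size factor, was 3.19 and 2.53 in the control group and 2.50 and 2.68 in the HS group. The order within the middle tier was not fixed. The ratio of miR-151-3p to miR-423-3p was 0.760 and 1.06 in the control group, where either could be the higher, and 1.27 and 1.33 in the HS group.

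To see how each arm differed between the groups, limma was fitted to log2(normalized count + 1) of the 376 miRNAs with at least 10 reads over the 4 libraries. The pseudocount shrinks the fold change of a miRNA with few reads. The median log2 fold change of all tested miRNAs was -0.65, or -0.25 for the 157 with at least 100 reads, and the values of the members are to be read beside it. The log2 fold change was 0.88 for miR-423-5p (standard error 0.78), 1.02 for miR-151-3p (0.82) and 0.48 for miR-423-3p (0.81). Their adjusted p-values in limma were 0.644, 0.621 and 0.809, so none of these differences was called. HS replicate 1 carried much of each value. Without it the log2 fold changes were 0.41 for miR-423-5p, 0.50 for miR-151-3p and -0.08 for miR-423-3p, whose direction thus turned. Without HS replicate 2 they were 1.35, 1.54 and 1.04. The median of all tested miRNAs moved as well, to -0.17 without HS replicate 1 and to -1.38 without HS replicate 2.

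For miR-151-5p limma gave a log2 fold change of -2.36, with a standard error of 0.75 and an adjusted p of 0.516. With an unadjusted p under 0.05 and a change of more than 2-fold, it met the study's criterion for an altered miRNA, the only one of the 4 members to do so. The criterion was met by 31 of the 376 tested miRNAs (8.24%), and by 25 in the downward direction (6.65%). This excess of lower values was not seen by every method. Of the miRNAs meeting the criterion, 11 of 21 were lower in edgeR, 15 of 29 in DESeq2, 10 of 18 in limma-voom, and 18 of 34 in limma without HS replicate 1. Some names meeting the criterion in limma had identical values, among them miR-374b-5p with miR-374c-5p and miR-466a-3p with miR-466e-3p. The counts are therefore of names, not all of them separate measurements. MiR-151-5p passed the minimum of 10 reads through the control libraries alone, so the filter itself favoured a lower HS value. It no longer met the criterion in edgeR's quasi-likelihood test (log2 fold change -3.35), in DESeq2's Wald test (-3.34) or in limma-voom (-2.48), nor in limma with a pseudocount of 5 (-0.999), with a mean-variance trend, with same-numbered libraries paired as blocks, without control replicate 1 (-2.32) or without control replicate 2 (-2.41). It did without HS replicate 1 (-1.996) and without HS replicate 2 (-2.73), where the HS value rests on 0 reads. After adjustment over all tested miRNAs, limma gave 0 calls (0%) and 31 at an unadjusted p under 0.05. EdgeR, DESeq2 and limma-voom also gave 0 adjusted calls, with 21, 29 and 18 unadjusted ones.

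Each HS library exceeded each control library for 2 of the 4 members, miR-423-5p and miR-151-3p, as for 47 of all tested miRNAs (12.5%), or 26 of the 157 with at least 100 reads (16.6%). The reverse held for miR-151-5p, as for 32.4% of all tested miRNAs.

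**Figure D2:**
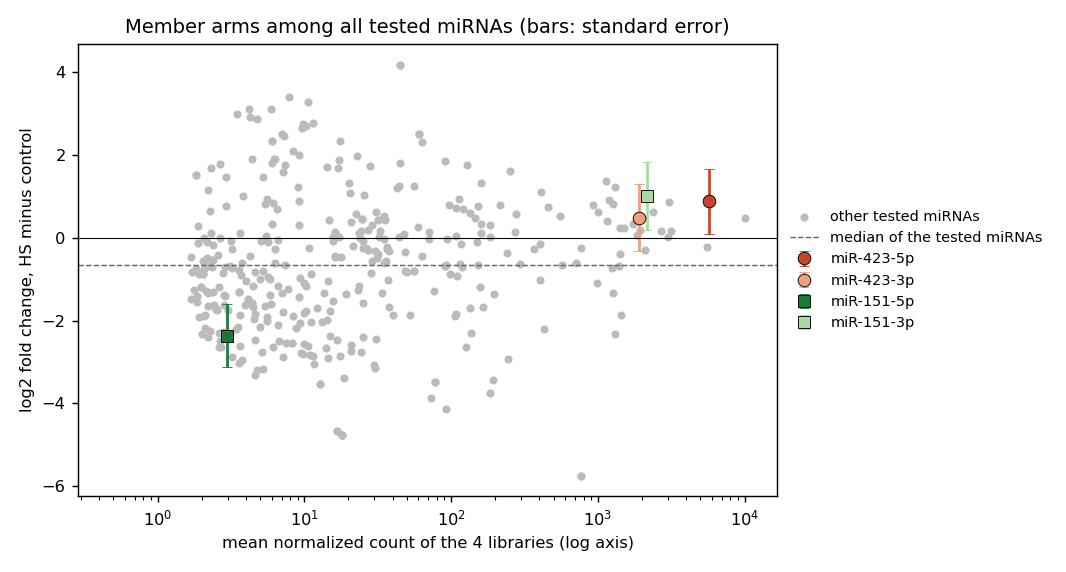
Log2 fold change, HS minus control, from limma (vertical axis) against the mean normalized count of the 4 libraries (horizontal log axis) for the 376 tested miRNAs, with standard errors for the members and a dashed line at the median of -0.65. The abundant members lie between 0.48 and 1.02 at the right edge, and miR-151-5p at -2.36 lies among the many low miRNAs below 0.

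The share of reads on each arm compares the strands within a library, so no size factor enters it. Adapter ligation favours some RNA ends over others, and a ratio of reads between arms is therefore not a ratio of molecules, although the same pair can be compared between libraries. Of the reads of both miR-423 arms, the 5p arm took 70.8% in control replicate 1 (95% Wilson interval 69.6% to 72.0%) and 72.8% in control replicate 2 (71.9% to 73.7%). It took 75.9% in HS replicate 1 (74.8% to 77.1%) and 78.1% in HS replicate 2 (77.3% to 78.9%). Every HS interval lay above every control interval. The intervals of the 2 HS libraries did not overlap each other either, whereas those of the control libraries did. Such intervals treat reads as independent, which amplified reads are not, so they do not measure the spread between replicates. Expressed as reads of 5p per read of 3p, the ratio was 2.43 and 2.68 in the control group and 3.16 and 3.57 in the HS group.

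The mean 5p share of miR-423 was 71.8% ± 1.41 in the control group and 77.0% ± 1.53 in the HS group (SD, n = 2), 5.22 percentage points apart. The libraries of a group were 1.99 points apart in the control group and 2.17 in the HS group, so the groups differed by more than either pair of replicates. An exact two-sided permutation test over the 4 libraries gave p = 0.333, the smallest that 2 libraries against 2 allow. In the log2 ratio of 5p to 3p, the HS group was higher by 0.40. Unlike the levels, this difference did not rest on HS replicate 1. It was 0.49 without HS replicate 1, 0.31 without HS replicate 2, 0.33 without control replicate 1 and 0.47 without control replicate 2.

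Of the reads of both miR-151 arms, the 5p arm took 7 of 1321 (0.530%, 95% Wilson interval 0.257% to 1.09%) in control replicate 1 and 8 of 2500 (0.320%, 0.162% to 0.630%) in control replicate 2. It took 0 of 1636 in HS replicate 1, which allows a share of up to 0.183%, and 1 of 2895 (0.0345%, 0.00610% to 0.195%) in HS replicate 2. At the pooled control share of 0.393%, 6.42 reads would have fallen on the 5p arm in HS replicate 1 and 11.4 in HS replicate 2. Shares of the groups did not overlap, but the interval of control replicate 2 overlapped those of both HS libraries. The exact permutation test again gave p = 0.333.

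**Figure D3:**
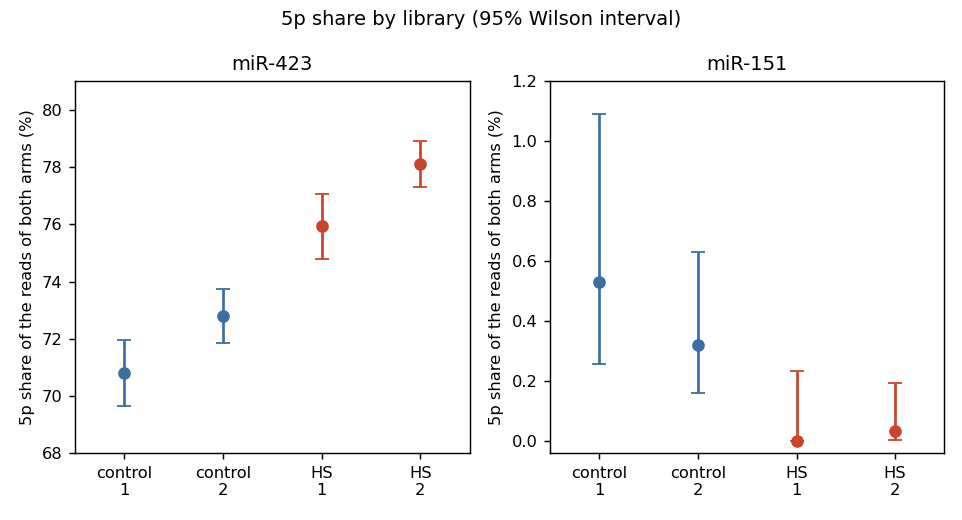
Share of the 5p arm among the reads of both arms (vertical axis, percent, on different scales that do not start at 0 for miR-423) in each library, control in blue and HS in red, with 95% Wilson intervals. For miR-423 the HS shares of 75.9% and 78.1% lie above the control shares of 70.8% and 72.8%, and for miR-151 the HS shares lie below those of the control libraries, with 1 read in all.

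Whether such ratios are usual was examined over all precursors whose 5p and 3p names each had at least 10 reads. Of 134 precursors with both names listed, 70 were tested. The mean ratio was over 1 for 32 and under 1 for 38. MiR-423 had the most reads of all 70, and its less read arm, with 7545 reads, was read more than the less read arm of any other pair, the next having 1172 reads. Its ratio varied least between the libraries. Few reads on an arm widen the spread of a log ratio, so this rank cannot be told apart from depth. The log2 ratio of miR-423 had a mean of 1.55 and a standard deviation of 0.25 over the 4 libraries, the smallest of the 70, where the next smallest was 0.37 for miR-339 and the median 1.67. Among the 15 pairs with at least 100 reads on each arm it also came first, the lowest of the others being 0.58. The pairs nearest to it in mean ratio among those 15 were miR-669a, miR-342 and miR-467a, whose log2 ratios had standard deviations of 5.99, 0.98 and 2.10. MiR-669a had 0 reads of 5p in HS replicate 1 and 0 reads of 3p in control replicate 2.

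MiR-151 lay at an extreme of the mean ratio, not of the spread. Its mean log2 ratio of 5p to 3p was -9.37, the lowest of the 70, with a standard deviation of 2.10. Summed over the libraries it had 521 reads of 3p per read of 5p. By this sum, miR-27b was more lopsided, with 544, and miR-674 came next, with 447, so the order of the extremes depends on how a library at 0 reads enters. The pairs nearest to miR-151 among the 15 were miR-222, miR-25 and miR-221, with mean log2 ratios of -7.30, -6.92 and -4.48.

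**Figure D4:**
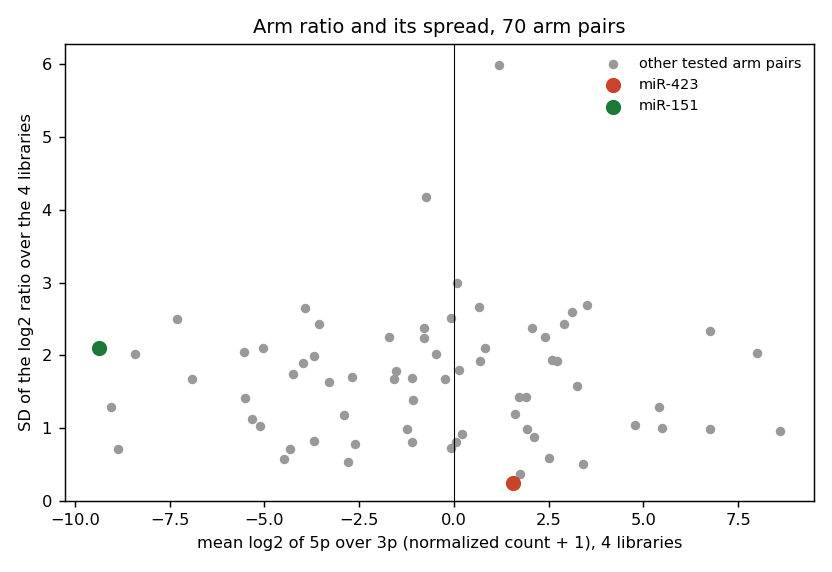
Standard deviation of the log2 ratio of 5p to 3p over the 4 libraries (vertical axis) against its mean (horizontal axis, above 0 where 5p is the more abundant arm) for the 70 tested arm pairs. MiR-423 (red) is the lowest point, at a standard deviation of 0.25, and miR-151 (green) is the leftmost, at a mean of -9.37.

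In limma over the 70 log ratios, the difference of miR-423 between HS and control was 0.40 (standard error 1.78, adjusted p = 0.936) and that of miR-151 was -3.38 (standard error 1.78, adjusted p = 0.517). Without HS replicate 1 the difference of miR-151 was -2.49, without HS replicate 2 -4.27, and without control replicate 1 or 2 -3.02 or -3.74. The ratio of HS replicate 1 rests on 0 reads of 5p against 1636 of 3p, so the pseudocount sets it. The size of every difference that includes this library, above all -4.27, is therefore not resolved. Its 5p arm passed the minimum of 10 reads through the control libraries alone, so the filter favoured a lower HS ratio here too. The fit gave every pair the same standard error, since the variances of the pairs were pooled fully, and this error is far above the spread seen for miR-423. With the prior variance allowed to fall with the level of the less read arm, an alternative chosen after the values were seen, the standard error of miR-423 was 0.34 and its adjusted p 0.677. In neither fit was the difference called. Both HS ratios were above both control ratios for miR-423, as for 12 of the 70 pairs (17.1%), and both were below for miR-151, as for 15 (21.4%), which the filter had favoured. Of the 15 pairs with at least 100 reads on each arm, 4 did not overlap between the groups. MiR-423 had both HS ratios above both control ratios (1 pair, 6.67%), and miR-222, miR-467a and miR-669a had both below (3 pairs, 20%). The adjusted p was under 0.05 for 1 pair (1.43%), miR-669a, which belongs to a multicopy family whose near-identical names can share reads, and the unadjusted p for 4 (5.71%).

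MiR-28a is the best read relative of miR-151 in these libraries. Its arms are shown for their seeds, in capitals, from RefSeq on GRCm38.p6 at chr16:24827868-24827889 for 5p and chr16:24827908-24827929 for 3p.
miR-28a-5p: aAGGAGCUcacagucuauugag
miR-28a-3p: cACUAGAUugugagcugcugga

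As in miR-151, the 3p arm was the more abundant one. The control libraries held 90 and 185 reads of miR-28a-3p and the HS libraries 25 and 253, so the groups overlapped (limma log2 fold change 0.05, adjusted p = 0.995, and 0.78 without HS replicate 1). The control libraries held 30 and 14 reads of miR-28a-5p and the HS libraries 0 and 7. Each HS library was under each control library (limma log2 fold change -2.80 with a standard error of 1.19, adjusted p = 0.585, and -1.55 without HS replicate 1). The log2 ratio of 5p to 3p of miR-28a was -1.55 and -3.59 in the control group and -5.94 and -4.90 in the HS group. The difference was -2.85 (adjusted p = 0.517 from limma), or -2.33 without HS replicate 1. The ratio of HS replicate 1 rests on 0 reads of 5p against 25 of 3p, so its order against control replicate 2 is not resolved. Most 5p reads came from the control libraries, so the filter favoured lower HS values here too. Both HS libraries lay below both control libraries for 32.4% of all tested miRNAs, and for 21.4% of the pairs in their ratios. The control libraries held 35 and 14 reads of miR-28c and the HS libraries 0 and 8, close to those of miR-28a-5p. These names may share reads, which was not tested. MiR-708-5p had a single read, from control replicate 1.

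The profile of a member over the 4 libraries was set against those of the 157 names with at least 100 reads, by the root mean square difference of their centred log2 values. The profile nearest to miR-423-5p was that of miR-1964-3p (0.06), followed by let-7b-5p (0.11) and miR-129-5p (0.12). Those nearest to miR-151-3p were let-7b-5p (0.09), miR-129-5p (0.12) and miR-423-5p (0.14). MiR-423-5p was thus nearer to miR-151-3p (0.14), from another chromosome, than to miR-423-3p (0.21), the opposite strand of its own hairpin. The names nearest to miR-423-3p were miR-342-5p (0.11), miR-674-3p (0.14) and let-7d-3p (0.17). The names nearest to miR-151-5p were miR-125a-5p (0.39), miR-148a-3p (0.57) and miR-26b-5p (0.60), but its HS values rest on 0 and 1 read and the limit in HS replicate 1 lies above both control values, so its profile is not resolved. With 4 libraries these values describe the profiles and were not tested.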

How the data were processed

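Small RNA of BV2 exosomes was sequenced in 2 control and 2 HS libraries. The authors removed adapters, short and low-quality reads, mapped the remainder with bowtie (version and genome build not given in the sources used here) and deposited 1 value per miRNA name. The deposited signal is headed RPKM, but 100% of its values above 0 were whole multiples (within 0.0001 reads) of the smallest one in each library, which returned the reads. The size factors were 1.20, 1.48, 0.414 and 1.51 for control replicates 1 and 2 and HS replicates 1 and 2.

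HS and control libraries were compared in R 4.3.3 with limma 3.58.1 (eBayes, no trend) on log2(normalized count + 1), over names with at least 10 reads in all, with Benjamini-Hochberg adjustment. Arm ratios were fitted likewise, as log2 of (5p + 1)/(3p + 1). EdgeR 4.0.16 and DESeq2 1.42.0 were run on recovered reads as alternatives. Scripts were tested on simulated data. Intervals of shares are 95% Wilson intervals, and Python 3.11.15 with scipy 1.17.1 was used. The fold was made with ViennaRNA 2.7.2. The members, lists and tests were chosen with earlier results of these data known. Names beyond the members were the 3 nearest profiles of each member, the 3 nearest arm pairs of each precursor, names sharing a seed, the miR-28 family and markers. Of a neuronal list of 3 names, miR-124-3p was not among the listed names. The other members, miR-128-3p (11447 reads over the 4 libraries) and miR-9-5p (408), summed to 2.73% to 3.69% of the reads. A red cell and liver list summed to 0.0953% to 0.325%.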

Additional observations from a re-analysis of the deposited data

How the results depend on the processing

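Over 16 alternatives, the log2 fold change of miR-423-5p ran from 0.41 to 1.35 and that of miR-151-3p from 0.50 to 1.54, with no change of direction and adjusted p-values from 0.169 to 0.882 and from 0.218 to 0.882. MiR-423-3p ran from -0.0764 to 1.04 and turned to -0.0764 without HS replicate 1. MiR-151-5p ran from -4.37 (pseudocount 0.1) to -0.999 (pseudocount 5) over 15 alternatives, met the study's criterion in 7 of them, and was not tested at a minimum of 100 reads. The log2 ratio of miR-423 differed by 0.31 to 0.49 over 14 alternatives and that of miR-151 by -5.39 to -2.01 over 13, in the same direction throughout. No adjusted p of a member or of a member ratio was under 0.05.

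The number of miRNAs meeting the criterion was 31, and 18 with limma-voom, 16 with a pseudocount of 5, 5 at a minimum of 100 reads, 19 with the replicate block, and 26 to 113 when 1 library was left out, the highest without HS replicate 2. The number of arm pairs with an unadjusted p under 0.05 was 4, and 9 with a pseudocount of 0.1, 8 on recovered reads with 0.5 read added, 13 without a filter, 1 at a minimum of 100 reads, 9 with the trended prior variance, and 0 to 21 when 1 library was left out. The adjusted call of 1 pair was lost in 9 of 14 alternatives, namely both other pseudocounts, recovered reads with 0.5 read added, no filter, a minimum of 100 reads, and the omission of any 1 of the 4 libraries.

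The replicate block, which pairs libraries by number, cannot move a fold change in this balanced design. Under it the adjusted p-values of the members ran from 0.681 to 0.892, and miR-151-5p (-2.36) no longer met the criterion, its unadjusted p in limma going from 0.0315 to 0.0839. The deviations of same-numbered libraries from their group means had a correlation of -0.097 over the tested miRNAs. With 2 libraries per group this is a single contrast, so it cannot decide whether same-numbered libraries share a culture or a batch. At the depth of HS replicate 1, the 0 reads of miR-151-5p allow a normalized count above the control values.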
